A study of Mus musculus with 8 samples.

Results

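Cytosolic ribosomal proteins are the structural proteins of the ribosome that translates nuclear-encoded mRNA. The genes examined were those with a symbol of the Rpl or Rps series (a number and at most 1 of the letters a, l, x or y after it), plus the stalk genes Rplp0, Rplp1 and Rplp2 and the laminin receptor gene Rpsa, with pseudogenes left out and with at least 100 estimated counts in at least 4 libraries. Of 47643 gene rows 82 carried such a name and 78 met the minimum, 46 of the large and 32 of the small subunit. The member nearest above the minimum was Rps4l, an Rps4x-like gene, with 258 to 368 counts per library. The 4 genes below it were Rpl3l, with 138 counts in heterozygous replicate 1 and 9 to 20 in the other libraries, Rpl6l with 17.5 to 31.0, Rpl39l with 1 to 4, and Rpl10l, for which no library had a count.

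The large subunit joins amino acids and carries the exit tunnel and the stalk, which recruits translation factors, and the small subunit reads the mRNA. Ribosomal protein genes are expressed in every cell and are known to be kept at matched levels. Their mRNAs typically begin with a 5′ terminal oligopyrimidine tract, a cytosine followed by further pyrimidines, through which mTOR signalling controls their translation.

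RNA was extracted from the spinal cord of 8 C57BL/6 mice, 1 library per mouse, 4 with the genotype label heterozygous and 4 labelled homozygous. The study concerns Arf1, a small GTPase of Golgi transport, in neurons. Tamoxifen at 100 mg per kg by intraperitoneal injection served to delete Arf1. Animals of 2 to 10 months were used. The labels give these conditions for the study as a whole and not animal by animal, and they name neither the allele nor the promoter of the recombinase. The heterozygous animals are the comparison group, and wild-type animals were not analysed here.

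Estimated counts totalled 26321522 to 37879426 per library. In CPM (counts scaled to a common library size with edgeR's TMM factors), Arf1 was at 296 to 334 in the 4 heterozygous libraries, while homozygous replicates 2, 3 and 4 had 22.5, 22.8 and 39.9. The library labelled homozygous replicate 1 had 307, within the heterozygous range, which goes against its label. The members as a whole are therefore compared with all 8 libraries as labelled and with 7, without that library. Fold changes of roles, length classes, other gene lists and most single genes are given mainly with 7. With all 8, no gene of the whole table passed an adjusted p of 0.05 in edgeR. Homozygous replicate 3 stood apart in quality, with 92.4% of reads mapped against 98.3% or more in the others and 2.44% ribosomal RNA bases against at most 0.34%. Homozygous replicate 4 had the lowest RNA integrity number, 8 against 9 in every other library.

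Of the 78 members, 57 had a promoter in RefSeq (GRCm38.p6), in 68 entries. A run of 8 or more C or T lay on the gene strand within 50 bases of the annotated start in 80.9% of those entries, against 35.7% of all 32851 promoters. On the other strand the shares were 23.5% and 38.1%. In 19.1% the start itself was C followed by 4 pyrimidines, against 2.51% of all promoters. The letters CCGGAAG, on either strand, were in 19.1% of member promoters and 5.21% of all, and read on the opposite strand (CTTCCGG) it can overlap the end of a pyrimidine run. These matches describe the letters in the window. The 5 stretches below were taken from the 13 entries whose start was C followed by 4 pyrimidines, so each shows the tract. They give 20 bases before the annotated start and 20 from it on, with capitals marking the unbroken pyrimidine run over the start. Rps27 is shown for its fold change, Rpl35a for its spread between animals, Rplp2 as a stalk gene, Rps6 as the ribosomal target of S6 kinase, and Rpl15 for a tract among the longest beside a small fold change.
Rps27, chr3:90213629-90213668, minus strand: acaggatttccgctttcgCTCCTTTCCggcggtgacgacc
Rpl35a, chr16:33056462-33056501, plus strand: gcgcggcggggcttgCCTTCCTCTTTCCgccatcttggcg
Rplp2, chr7:141447631-141447670, plus strand: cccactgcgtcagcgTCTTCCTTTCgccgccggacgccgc
Rps6, chr4:86857348-86857387, minus strand: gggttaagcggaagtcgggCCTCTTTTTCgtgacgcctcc
Rpl15, chr14:18270967-18271006, minus strand: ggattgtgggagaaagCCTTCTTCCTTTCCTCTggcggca
The run over the start was 9 bases long in Rps27, 13 in Rpl35a, 10 in Rplp2, 10 in Rps6 and 17 in Rpl15. Whether run length goes with fold change over the 13 entries was not tested.

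Levels were compared between genes in TPM, RSEM's transcript abundance, which is per length and sums to the same total in each library. The members were among the most abundant mRNAs of the cord. Their median was 456 TPM over heterozygous means, with quartiles of 321 and 681 TPM, and 75 of the 78 were in the top 5% of the 14813 genes at 1 TPM or more. Within a factor of 2 of that median lay 64 members. The 10 most abundant held 29.2% of all member TPM.

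Rps29, a small zinc-binding protein of the small subunit head, was the highest member in all 8 libraries. Its TPM was 1873, 1813, 2151 and 1883 in the heterozygous libraries and 1857, 2016, 2040 and 2058 in the libraries labelled homozygous. It was followed by the stalk protein gene Rplp1 with 1618 ± 49.7 TPM (SD, n = 4 heterozygous), the small-subunit gene Rps27 with 1596 ± 142 TPM, Rps15 with 1347 ± 46.1 TPM and Rpl26 with 1321 ± 102 TPM. Rps27 and Rplp1 thus did not differ beyond their spread. In the order of heterozygous means, the 4 values of neighbours overlapped in all but 7 of 77 neighbouring pairs, so most places in the order are not resolved by 4 animals.

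The low end held the paralogs. Rps4l had 15.6, 24.9, 22.4 and 18.9 TPM in the heterozygous libraries, where Rps4x, the X-linked gene it resembles, had 297 to 354 TPM. Rps27l, a paralog of Rps27, had 50.8 to 62.0 TPM. Above them came Rpl10a with 153 ± 9.8, Rpl27a with 204 ± 12.6 and Rpl22 with 217 ± 8.9 TPM (SD, n = 4 heterozygous). The highest member mean was 94.4 times the lowest, and 12.7 times without Rps4l and Rps27l. Rpl39l, Rpl3l and Rpl10l, paralogs of members and below the count minimum, were at most at 5.51 TPM in any library.

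**Figure D1:**
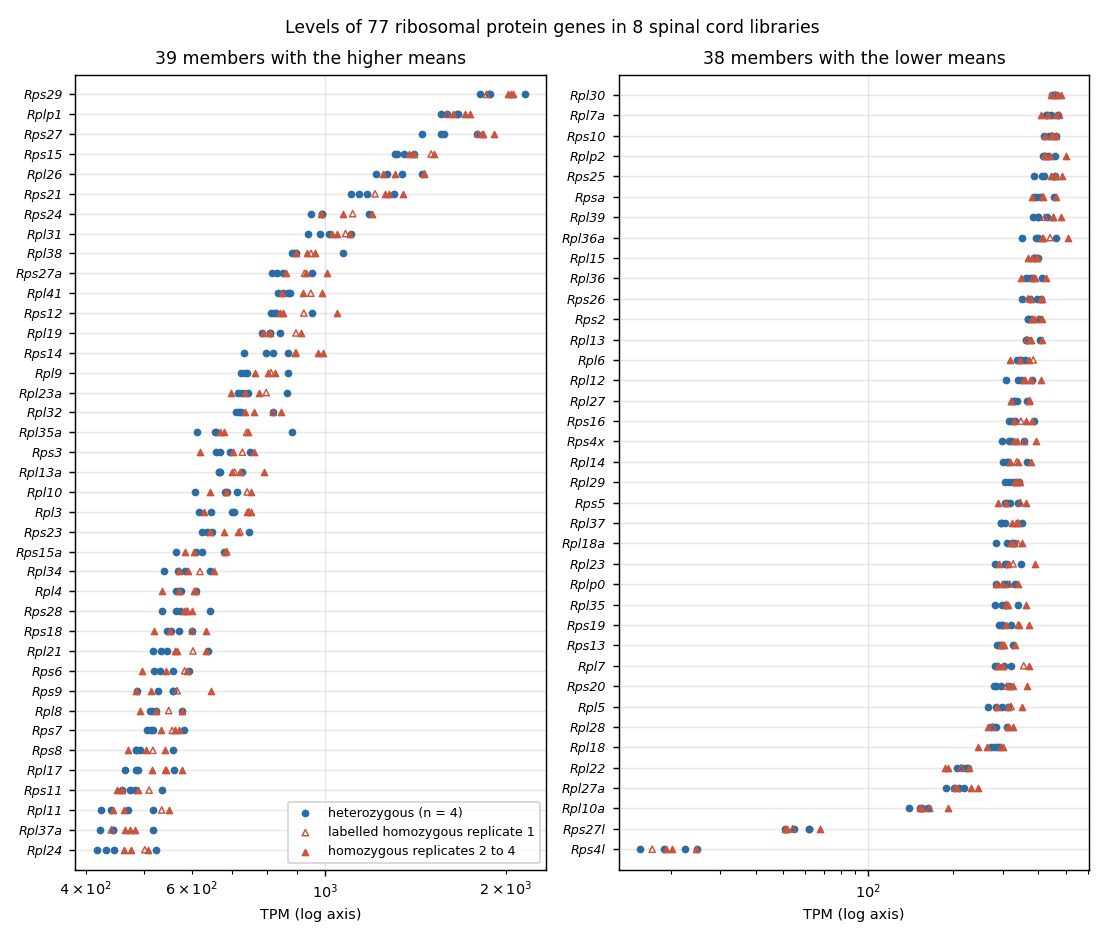
TPM (log axes) of each of 77 members in each of the 8 libraries, ordered by heterozygous mean, with the higher 39 on the left and the lower 38 on the right. Circles are heterozygous libraries, filled triangles homozygous replicates 2 to 4 and open triangles the library labelled homozygous replicate 1. Rps29 is at the top, Rps4l and Rps27l lie apart at the bottom, and the colours overlap for nearly every gene.

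The spread between animals was small. The median coefficient of variation over the 4 heterozygous libraries was 6.80% for members, 10.6% for all genes at 1 TPM or more and 6.10% for the 1418 genes at 100 TPM or more. The widest spread among abundant members was in Rpl35a, a Diamond-Blackfan anemia gene, with 658, 613, 882 and 655 TPM. Heterozygous replicate 3 was the high library there, and it was the highest heterozygous library in CPM for 76 of the 78 members. Heterozygous replicate 4 was the lowest of all 8 libraries in CPM for 67. In TPM it was the lowest for 19, heterozygous replicate 2 for 27 and homozygous replicate 3 for 18, so the low library depended on the scale. Heterozygous replicate 3 was above the heterozygous mean for 78 members in CPM and 77 in TPM. Members share each library's depth, scaling and RNA, and these libraries also differed in other ways: the median 5′ to 3′ coverage ratio was 0.505 in heterozygous replicate 4 against 0.413 to 0.441 in the other heterozygous libraries. The part of these differences in the spread was not tested.

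The members made up 1.23%, 1.24%, 1.43% and 1.21% of estimated counts in heterozygous replicates 1 to 4. The share was 1.38% for the library labelled homozygous replicate 1. Homozygous replicates 2, 3 and 4 had shares of 1.44%, 1.47% and 1.55%. Replicates 2 to 4 were thus all above the heterozygous libraries, by a narrow margin over heterozygous replicate 3, and replicate 1 lay within the heterozygous range. Of all TPM the members held 4.29%, 4.20%, 4.79% and 4.28% in heterozygous replicates 1 to 4, 4.65% in the library labelled homozygous replicate 1, and 4.47%, 4.42% and 4.89% in replicates 2 to 4. On that scale the groups overlapped. In bulk tissue a change in the cells present and a change in RNA per cell cannot be told apart.

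In TMM-scaled counts every member was higher on average in the homozygous group, and few members passed the test. With 8 libraries, all 78 log2 fold changes (homozygous minus heterozygous) were above 0, against 50.4% of the 16511 genes tested. Their median was 0.24, with a range of 0.12 to 0.41, against 0.002 for all genes. None passed an adjusted p of 0.05 in edgeR's quasi-likelihood test, and no gene of the whole table did (0%). The lowest adjusted p among members was 0.118, and 67 members had an unadjusted p under 0.05 with the higher value in the homozygous group, against 7.87% of all genes. DESeq2 called 23 members higher, against 1.78% of its genes.

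With 7 libraries the median log2 fold change was 0.28, a difference of 21.6%, with quartiles of 0.23 and 0.33, against 0.003 for all 16560 genes. All 78 were again above 0, against 50.5% of genes. By edgeR with Benjamini-Hochberg adjustment, 5 members rose (0.55% of all genes were called higher) and no member fell (0.67% of all genes were called lower). A further 30 had an adjusted p between 0.05 and 0.1, and 72 an unadjusted p under 0.05 in that direction, against 9.51% of genes. The count depended on the tool, since DESeq2 called 44 members higher (2.63% of its genes) and limma-voom 2 (0.332%). The authors' deposited table of 185 genes, with a highest FDR of 0.0936, listed no member. Its column names do not say which libraries entered it, so it is not matched to the 7-library comparison.

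Among the small-subunit genes called, Rps14 encodes a protein near the mRNA exit. In the heterozygous libraries it had 235, 211, 251 and 211 CPM, and in homozygous replicates 2, 3 and 4 it had 327, 316 and 301. The library labelled homozygous replicate 1 had 259, just above the highest heterozygous library, so the groups did not overlap with or without it. The log2 fold change with 7 libraries was 0.47 ± 0.079 (SE) with an adjusted p of 0.0334 in edgeR, and with 8 libraries it was 0.40 with an adjusted p of 0.118.

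Rps27, a zinc-finger protein of the small subunit, had 143, 135, 164 and 134 CPM in the heterozygous libraries and 204, 217 and 183 in homozygous replicates 2 to 4. The groups did not overlap, and the library labelled homozygous replicate 1, at 162, lay within the heterozygous range. The log2 fold change with 7 libraries was 0.48 ± 0.091 (SE), with an adjusted p of 0.0438 in edgeR. Rps27 is short, with an effective length of 148 bases in the shortest case, so its TPM depends on the fragment lengths estimated for each library.

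Rps20, a protein of the small-subunit head, had 101, 106, 112 and 99.0 CPM in heterozygous libraries and 128, 143 and 139 in homozygous replicates 2 to 4, with 110 in the library labelled homozygous replicate 1. The log2 fold change with 7 libraries was 0.38 ± 0.071 (SE), with an adjusted p of 0.0406 in edgeR. Rps15, also of the head and near the decoding site, had 238, 237, 257 and 226 CPM against 294, 315 and 297, and 272 in the library labelled homozygous replicate 1. Its log2 fold change was 0.33 ± 0.067 (SE), with an adjusted p of 0.0495 in edgeR. For both genes homozygous replicates 2 to 4 were above every heterozygous library.

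Rpl39, a small protein that lines the exit tunnel, was the one large-subunit gene called. It had 98.0, 94.8, 107 and 90.9 CPM in heterozygous libraries, 128, 137 and 128 in homozygous replicates 2 to 4, and 104 in the library labelled homozygous replicate 1. The homozygous replicates were above all heterozygous libraries, and the remaining library was within their range. The log2 fold change was 0.42 ± 0.072 (SE), with an adjusted p of 0.0339 in edgeR.

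Each of the 5 calls was lost when certain single libraries were left out. When 1 of the 7 libraries was dropped in turn, Rps14 and Rpl39 each passed in 3 of 7 fits, Rps27 in 2, and Rps20 and Rps15 in none. No member passed once heterozygous replicate 2 or 4, or else homozygous replicate 2 or 3, was dropped, and 2 to 4 passed without each of the other libraries. For Rps14 the adjusted p over these edgeR fits ran from 0.0245 to 0.117.

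**Figure D2:**
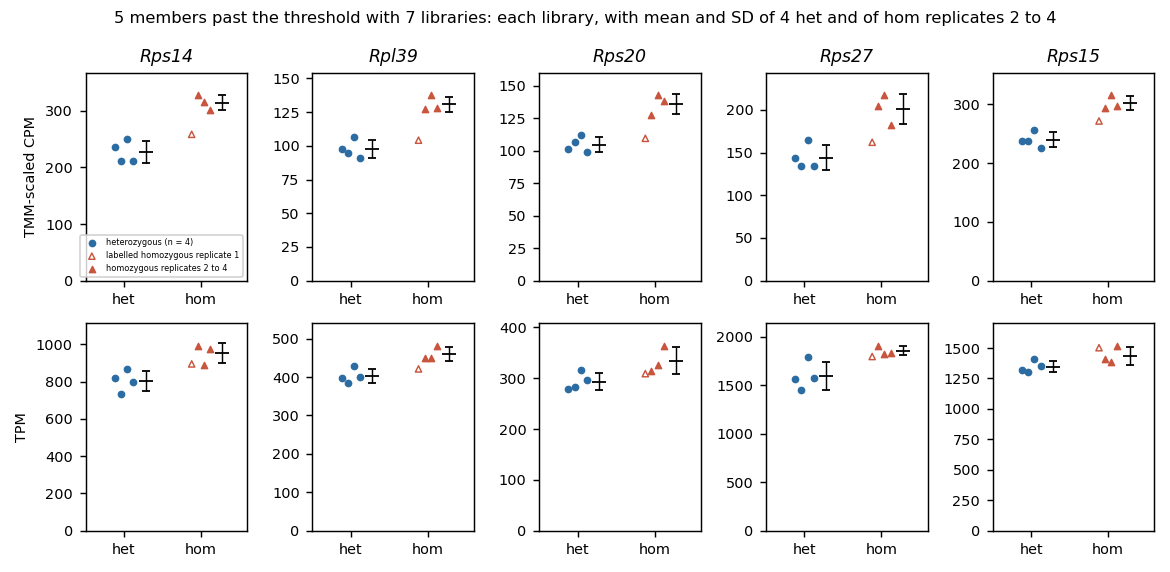
TMM-scaled CPM (upper row) and TPM (lower row) of the 5 members past the threshold with 7 libraries, all axes from 0, with circles for heterozygous libraries, filled triangles for homozygous replicates 2 to 4 and an open triangle for the library labelled homozygous replicate 1. Bars give the mean and SD of the 4 heterozygous libraries and of homozygous replicates 2 to 4. In CPM the filled triangles lie above all circles for each gene, while in TPM they do so only for Rps14, Rps27 and Rpl39.

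Seen by role, the members gave similar values. In the 7-library edgeR comparison the median log2 fold change was 0.28 for both the 46 large-subunit and the 32 small-subunit genes, with 1 and 4 of them called. For the 4 stalk genes it was 0.29, with 0 called, from 0.17 for the central stalk protein Rplp0 to 0.33 for Rpl12. Rpl5 and Rpl11, which enter the large subunit with 5S rRNA, had 0.31 and 0.28, with 0 called. The 8 tunnel-exit genes had a median of 0.27, and those near the mRNA exit (4 genes) 0.30, with 1 called in each. The 3 genes listed for the mRNA entry side, among them Rps15 near the decoding site, had 0.28, with Rps15 called. The 4 X-linked genes Rps4x, Rpl10, Rpl36a and Rpl39 had 0.35, with Rpl39 called. The 9 genes listed for Diamond-Blackfan anemia, an inherited failure of red cell production, had 0.29 with 0 called. The list need not hold every member linked to the disease, so the 0 applies to these 9 only. Rps19 stood highest of these, at 0.39 ± 0.084 (SE), adjusted p = 0.0546 in edgeR.

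Over all 78 members the fold changes varied by an SD of 0.069 on the log2 scale, while the median SE of a single member's fold change was 0.082. Within 1 SE of the member median lay 59 members and within 2 SE lay 76. That SE includes differences between libraries that the members share. It therefore does not measure how well members can be ordered among themselves, which was not tested. Rpl22 was among the smallest values (0.16).

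Fewer members were separated between groups in TPM than in counts. With 7 libraries, 62 members had homozygous CPM all above heterozygous CPM, against 9.76% of all genes, and in TPM 3 did (Rps14, Rps27 and Rpl39), against 1.68% of genes. With 8 libraries the numbers were 19 (4.61% of genes) in CPM and 2, Rps14 and Rps27, (0.751%) in TPM. No member was separated in the other direction on either scale. On log2(TPM + 1) with limma, the members' median fold change was 0.061 with 8 libraries and 0.068 with 7, and none passed the threshold, against 0% and 0.543% of genes called higher. Members with a positive value numbered 70 and 62, against 18.9% and 17.8% of genes. The whole table was shifted on this scale, with an all-gene median of −0.14 and −0.17, and all 78 members lay above that median in both comparisons. Homozygous replicate 4 carried much of the members' TPM difference. Their median difference from the heterozygous mean was −0.0011 in homozygous replicate 2, 0.014 in replicate 3 and 0.17 in replicate 4, with 38, 47 and 78 members above that mean. Without replicate 4, an alternative chosen after seeing the data, the 7-library median was 0.012, with 42 members above 0, and the 8-library median was 0.030. It was 0.043 with 7 libraries without heterozygous replicate 2. Without heterozygous replicate 3 it was 0.11 with 7 libraries, where Rps27 was called, and 0.10 with 8. Rpl22 (−0.086 and −0.11) and Rps27l (−0.039 and −0.026) had values below 0 in TPM and above 0 in counts.

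**Figure D3:**
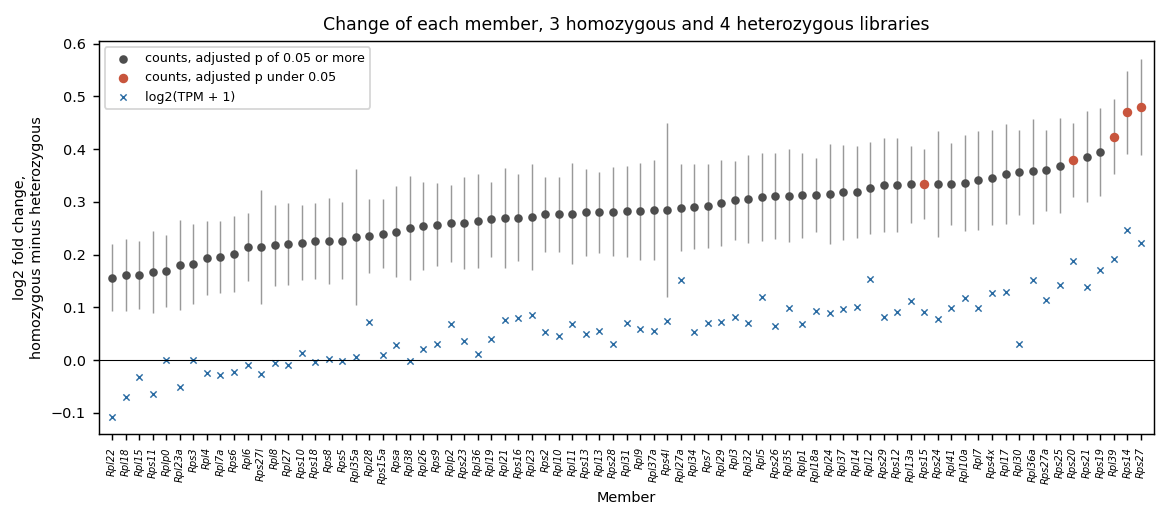
Log2 fold change of each of 77 members (homozygous replicates 2 to 4 minus 4 heterozygous libraries), ordered by its value in counts. Dots with bars are edgeR values on counts with their SE, orange where the adjusted p is under 0.05, and crosses are values on log2(TPM + 1). All dots lie above 0, between 0.16 and 0.48, and the crosses lie lower, from −0.11 to 0.25.

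TPM is a share of the total, and genes encoded in mitochondrial DNA held a larger share of it in the homozygous group. They held 17.1% to 19.2% of TPM in heterozygous libraries, 19.1% in the library labelled homozygous replicate 1, and 24.0%, 23.9% and 20.4% in replicates 2 to 4. With those genes left out of the total, an alternative chosen after seeing the data, the members' median with 7 libraries was 0.15 against −0.11 for all genes. On that scale 77 members were above 0 (27.3% of genes were) and 1, Rpl39, was called by limma (adjusted p = 0.0437, with 0.387% of genes called higher).

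**Figure D4:**
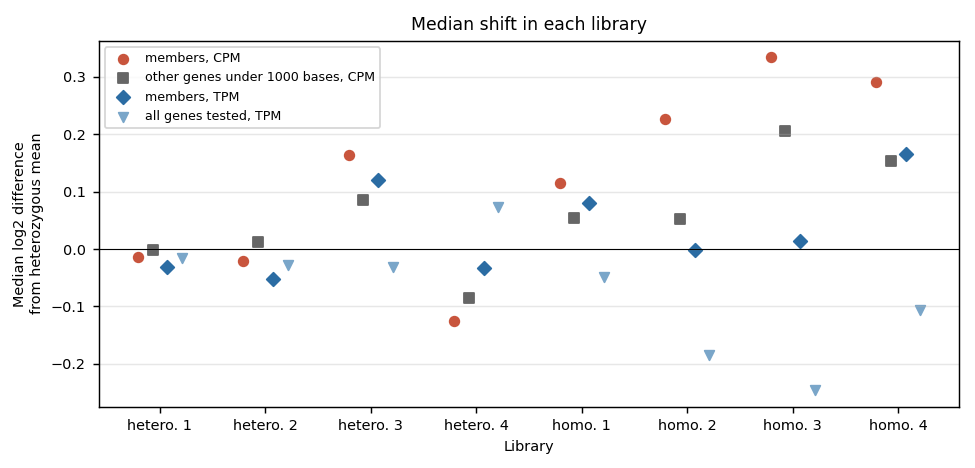
Median log2 difference of each library from the heterozygous mean, for members in CPM and TPM, for other genes under 1000 bases in CPM and for all genes tested in TPM. Members in CPM stand at 0.23, 0.33 and 0.29 in homozygous replicates 2, 3 and 4 and at 0.16 in heterozygous replicate 3, and other short genes shift in the same direction by less in each of these libraries.

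Most members are short, and other short genes also had a median above 0 in counts. Of the 78, 65 have a transcript length under 1000 bases, with a median of 725. Among all other genes, the median log2 fold change with 7 libraries fell from 0.17 for those with an effective length under 500 bases to 0.11, 0.051 and −0.017 in the next classes and −0.087 for those of 4000 bases or more. The members were above other genes of their class: 0.28 for the 37 under 500 bases, 0.28 for the 34 from 500 to 1000 and 0.24 for the 7 longer ones. Other genes under 1000 bases and at 100 TPM or more, 327 in number, had a median of 0.13. With each library's trend of counts with effective length taken out, also an alternative chosen after seeing the data, the members' median was 0.11 with 7 libraries. Of the members 72 were then above 0, against 49.4% of genes, and none was called by edgeR, against 0.223% of genes called higher.

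**Figure D5:**
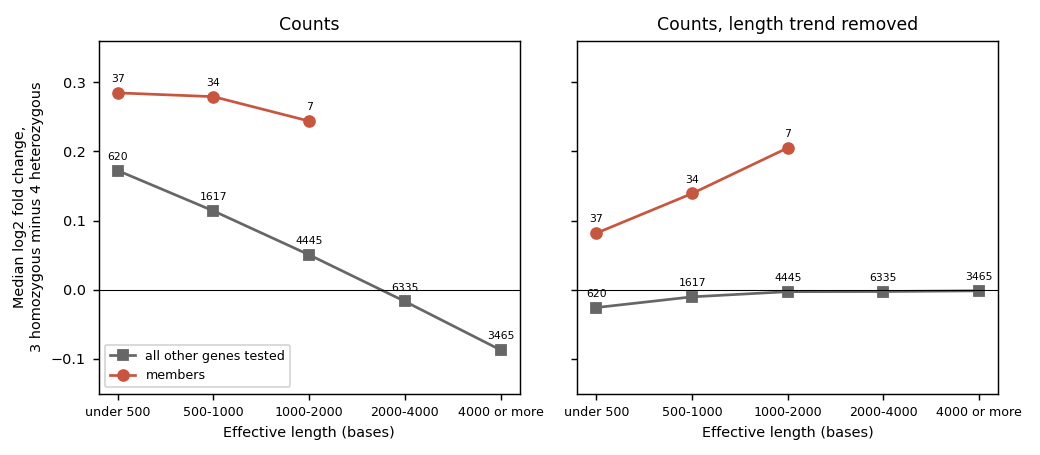
Median log2 fold change (3 homozygous minus 4 heterozygous libraries) by class of effective length, for members (circles) and for all other genes tested (squares), with the number of genes at each point. On counts other genes fall from 0.17 to −0.087 with length and members stay between 0.24 and 0.28. With the length trend taken out, other genes lie near 0 and members between 0.082 and 0.21.

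Other genes of the translation machinery were described with 7 libraries by edgeR on counts, and their medians also in log2(TPM + 1) with limma, where the median of all genes was −0.17 and 12.5% of genes were called lower. Of 9 further cytosolic ribosome genes whose names fall outside the rule, 1 rose, none fell, and the median log2 fold change was 0.30. In TPM their median was 0.075, with none called by limma. The gene that rose was Rpl22l1, a paralog of Rpl22, from 61.6 ± 5.7 CPM (SD, n = 4) to 82.6 ± 5.6 CPM (SD, n = 3), with a log2 fold change of 0.42 and an adjusted p of 0.0490. Fau, which encodes a ubiquitin-like protein fused to Rps30, had 0.35, with an adjusted p of 0.0791 in edgeR. Rpl7l1, a paralog that works in ribosome assembly, was at 41.5 CPM in both groups. Rps27a, the member fused to ubiquitin, had 0.36 with an adjusted p of 0.0546.

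Translation factors whose mRNAs carry the same 5′ tract had a median of 0.18 in counts, with 16 of 17 above 0 and 1 called by edgeR. In TPM their median was −0.040, with 5 of 17 above 0 and none called by limma, so most of them changed sign with the scale. The gene called was Eif3e, a subunit of initiation factor eIF3, from 62.9 ± 3.9 CPM (SD, n = 4) to 82.4 ± 3.2 CPM (SD, n = 3), at an adjusted p of 0.0368 in edgeR. Elongation factor Eef1a1 had 0.20 and Eef2 −0.021, neither of them called. Among 10 host genes of small nucleolar RNAs, many of which carry such a tract as well, the median was 0.41 and 2 rose, Snhg12 (0.53, adjusted p = 0.0345 in edgeR) and Snhg1 (0.52, adjusted p = 0.0371). Gas5 had 0.45 with an adjusted p of 0.0767. In TPM the median of these host genes was 0.16, with 2 called higher by limma. With all 8 libraries the medians in counts were 0.27 for the further ribosome genes, 0.17 for the translation factors and 0.33 for the host genes. None of these genes was then called by edgeR, as no gene of the whole table was. None of these lists was tested as a list.

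Genes that build ribosomes gave values near those of all genes. The 24 assembly factors tested had a median of 0.024 and the 13 RNA polymerase I genes, which transcribe rRNA, one of 0.026, with none called in either by edgeR. In TPM the medians were −0.19 and −0.16, and limma called 2 assembly factors lower and no RNA polymerase I gene. The nucleolar protein Npm1, with the smallest p among assembly factors, had 0.25 at an adjusted p of 0.0998 in edgeR. The 15 mitochondrially encoded genes had a median of 0.63, with 6 called higher by edgeR, and a median of 0.39 in TPM, with 4 called higher by limma. With all 8 libraries their median in counts was 0.49, with 0 called by edgeR.

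Neuronal and oligodendrocyte genes were abundant in all libraries. Marker sums in this paragraph are CPM from each library's total count, without the TMM factors used for CPM elsewhere. On that unscaled basis, with all 8 libraries, the summed markers of 2 other cell types did not overlap between the groups. The summed CPM of 4 Schwann cell genes was 147 to 611 in heterozygous and 41.1 to 84.5 in homozygous libraries. That of 4 fibroblast genes was 40.9 to 101 and 22.6 to 40.2, a narrow margin. Whether it holds with TMM factors was not tested. The library labelled homozygous replicate 1, with Arf1 at the heterozygous level, had 44.5 and 28.4, below both heterozygous ranges. None of these 8 genes passed edgeR's test with 7 libraries, while limma on log2(TPM + 1) called 3 of the 4 Schwann cell genes and 3 of the 4 fibroblast genes lower. On that scale the whole table was shifted, with an all-gene median of −0.17 and 12.5% of all genes called lower. None was at 0 in all libraries. Heterozygous replicate 3, the heterozygous library with the most member counts, also had the highest Schwann and fibroblast sums. It was likewise the highest heterozygous library for astrocyte, microglial, endothelial, red cell, and monocyte and neutrophil sums. For neuronal, oligodendrocyte, precursor, T cell and B cell sums it was not. These places apply to the unscaled sums only. Neuronal genes (5) summed to 4905 to 5909 and 4919 to 5354 CPM, and microglial genes (5) to 252 to 311 and 212 to 280, where Tmem119 fell (−0.56, adjusted p = 0.0462 in edgeR with 7 libraries). Oligodendrocyte genes (5) summed to 7995 to 9725 and 5533 to 11919 CPM, astrocyte genes (4) to 784 to 1075 and 691 to 874, endothelial genes (4) to 127 to 160 and 71.4 to 143, and red cell genes (4) to 181 to 470 and 245 to 713, with none of them called by edgeR. On log2(TPM + 1), limma with 7 libraries called 2 of 4 endothelial, 3 of 5 microglial and 2 of 5 neuronal genes lower, against 12.5% of all genes. It called no oligodendrocyte, astrocyte or red cell gene. Precursor genes (2) summed to 61.4 to 90.1 and 53.6 to 83.3 CPM, and monocyte and neutrophil genes (4) to 4.80 to 10.3 and 4.36 to 30.02. T cell and B cell genes summed to at most 0.467 and 1.48 CPM. In homozygous replicates 2 to 4 these sums were 0.0330 to 0.0380 and 0.264 to 0.380. They lay below the heterozygous 0.0670 to 0.467 and 0.423 to 1.48. With the library labelled homozygous replicate 1, at 0.185 and 0.449, the groups overlapped. The part of cell makeup in the members' values was not tested.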

How the data were processed

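Spinal cord RNA was sequenced as 1 library per mouse, 4 per genotype label. Reads were processed with cutadapt, STAR, RSEM and Picard on mm10, per the submitters' processing notes. Tool versions and the annotation: not given in the sources used here. Per the file headers, the authors deposited for each library and gene an RSEM expected count, a TPM and an FPKM (which entered no comparison) and other quality values. Their deposited table of 1 comparison gives log2 fold changes, p-values and FDR.

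Expected counts were rounded. RSEM divides reads between similar genes: 71 of 78 members had estimated counts that were not whole (beyond 0.005) in some library, and 270 pseudogene rows held counts equal to 0.390% to 0.557% of the members' sum. The main test was edgeR 4.0.16 (R 4.3.3; TMM, filterByExpr, robust quasi-likelihood, Benjamini-Hochberg over all genes tested, threshold 0.05). TPM was tested as log2(TPM + 1) with limma 3.58.1; that scale understates changes of low genes. Alternatives were DESeq2 1.42.0, limma-voom, other scalings, filters and pseudocounts, and leaving out libraries. The edgeR fit was also run on simulated counts. Of 50 genes changed 1.2-fold it recovered 10% with 8 libraries and 4% with 7. Of 50 genes changed 2.0-fold it recovered 90% and 88%. Genes were drawn independently there, so shifts shared by the genes of a library were not simulated. Positions came from GENCODE M21, which matched all 78 members.

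The members and gene lists were chosen with earlier results of these data known. Named members were the 5 highest and 5 lowest by heterozygous TPM, those with the smallest p or past the threshold, the 3 most variable, and paralog, stalk, 5S particle, Rpsa and ubiquitin-fused members, 26 in all. From other lists, genes past the threshold and the 3 with the smallest p could be named. Rps6, Rpl15, Rpl12, Rpl7l1, Eef1a1 and Eef2 were added after their values were seen. 1 member and 1 other gene are counted but not reported singly here. The number of animals limits precision.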

Additional observations from a re-analysis of the deposited data

Results flagged for a closer look

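In 5 of the 108 sets of 4 libraries examined, the highest or lowest library lay far from the other 3. About 1 in 20 such sets would do so by chance. Heterozygous replicate 3 accounts for 3 of them: the members' share of counts was 1.43% there and 1.21% to 1.24% in the other heterozygous libraries, their share of TPM was 4.79% against 4.20% to 4.29%, and Rpl35a had 882 TPM against 613 to 658. Rpl3, a gene of the large subunit, had 629 TPM in homozygous replicate 3 and 742 to 753 in the other libraries labelled homozygous. Rps27a had 294 CPM in the library labelled homozygous replicate 1, whose Arf1 level was that of heterozygous libraries, and 344 to 346 in homozygous replicates 2 to 4.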

How the results depend on the processing

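The members' median stayed above 0 under all alternatives run. With 8 libraries, where edgeR called 0 members, DESeq2 called 23, and leaving out 1 library gave 0 to 5, the 5 being without homozygous replicate 1. With 7 libraries, where edgeR called 5, unscaled totals gave 3, no filter 10, DESeq2 44, limma-voom 2, edgeR without robust estimation 3, both TPM pseudocounts 0, an adjusted p of 0.1 35, the length-trend offset 0 and TPM without mitochondrial genes 1, and leaving out 1 library 0 to 4; the cause was not tested. The median of 0.24 with 8 libraries was 0.061 in TPM with either pseudocount, 0.10 with the length-trend offset and 0.13 in TPM without mitochondrial genes. The median of 0.28 with 7 libraries was 0.068, 0.068, 0.11 and 0.15. In TPM, leaving out 1 library gave medians of 0.030 to 0.10 with 8 libraries and 0.012 to 0.11 with 7, the lowest without homozygous replicate 4 and the highest without heterozygous replicate 3. The members' share of TPM was 0.219 percentage points higher in the homozygous group and 0.523 with mitochondrial genes left out of the total. Of named members 2 changed sign. Rpl22 was at −0.086 in TPM with either pseudocount and −0.022 without mitochondrial genes with 8 libraries, and at −0.11, −0.11 and −0.026 with 7. Rps27l was at −0.039 and −0.040 in TPM and −0.030 with the length-trend offset with 8 libraries, and at −0.026, −0.027 and −0.00043 with 7. No paired analysis was possible because each animal has its own number in the labels, and replicate numbers follow the order of deposition.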

Other observations

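Rpl3l, the paralog of Rpl3 that is known from skeletal muscle and heart, was below the count minimum and uneven between libraries. It had 5.51 TPM in heterozygous replicate 1, from 138 counts, and 0.370 to 0.830 TPM in the other 7 libraries.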
